A study of Mus musculus with 10 samples.

Results

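Ctps and its partners in nucleotide synthesis were followed in mouse liver on 10 microarrays. The set holds the enzymes of pyrimidine synthesis Cad, Umps and Ctps, the enzymes of deoxynucleotide supply Rrm1, Rrm2, Tyms, Dut and Tk1, and Impdh2 of guanine nucleotide synthesis, 9 genes in all. Every probe set annotated to 1 of these genes alone was taken, which gave 21 probe sets for 8 genes among 34945 such probe sets for 18193 genes on the array. Impdh2 had no probe set with its symbol in the annotation used and is not analysed here. The set was drawn up with the contrast of the groups in view, and Ctps heads it because of its difference there. The members' differences between the groups are therefore given as a description, with standard errors and no p-value. A count of members past a threshold on that contrast is given only beside the same count over all genes.

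RNA came from the liver of mice labelled ApoE-/-, 1 mouse per Affymetrix mouse array. The dn-cJun mice (5, replicates 16 to 20) had been infected with an adenovirus that expresses dominant negative cJun, written dn-cJun. The control mice (5, replicates 11 to 15) had been infected with an adenovirus that expresses GFP, a fluorescent protein. cJun pairs with other proteins to form AP-1, a transcription factor. The age, sex and diet of the mice, the time after infection, the promoter of the viral insert and the liver cells it reached are not given in the labels.

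Nucleotides are made anew or recovered by salvage. In the pyrimidine pathway CAD carries out the early steps, UMPS completes UMP, and CTP synthase (Ctps) turns UTP into CTP with glutamine as nitrogen donor, which feeds RNA, phospholipid and DNA synthesis. Ribonucleotide reductase (Rrm1 and Rrm2) makes the deoxynucleotides. DUT hydrolyses dUTP to dUMP, TYMS methylates dUMP to dTMP, and TK1 recovers thymidine. Several of these genes are known E2F targets that rise when cells enter S phase, while resting hepatocytes make little DNA.

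The median deposited intensity of an array was 85.3 to 98.8 in the arrays labelled dn-cJun and 89.7 to 127.5 in the controls, with the highest in control 11. Per the labels' protocols the RNA of control 11 was isolated with Trizol, while Affymetrix stands in that place for the remaining 9 arrays. The 3 prime minus 5 prime log2 signal of Gapdh was -0.52 to -0.35 in the arrays labelled dn-cJun and -0.51 to -0.40 in the controls. That of Actb was 0.43 to 0.60 in the arrays labelled dn-cJun and 0.40 to 0.52 in the controls. The log2 signal of Apoe was 15.31 to 15.82 in the arrays labelled dn-cJun and 9.42 to 10.94 in the controls, although all mice carry the ApoE-/- label. The Apoe signal of all 5 arrays labelled dn-cJun thus goes against that label. In every difference between the groups given here, the virus and whatever separates the groups in Apoe, genotype included, cannot be told apart. The sex markers were split unevenly between the groups. All 5 arrays labelled dn-cJun had Xist at 5.96 to 6.63 and the Y-linked Eif2s3y at 10.58 to 11.13. Controls 14 and 15 had Xist at 13.71 and 13.63 and Eif2s3y at 5.22 and 4.08, and the other 3 controls were like the arrays labelled dn-cJun, with Xist at 5.90 to 6.72. The 8 hepatocyte markers averaged 14.88 to 15.17 in the arrays labelled dn-cJun and 14.63 to 14.99 in the controls, with the lowest mean in control 11. In bulk liver, fewer cells of a type and less RNA per cell cannot be told apart.

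The stretch before the transcription start is shown for Ctps, which had the largest difference between the groups. It is also shown for Rrm1 and Rrm2, the members that moved together from array to array within the groups. Each sequence is the last 120 bases before the RefSeq start in build GRCm38.p6, read 5′ to 3′ on the gene's strand. Capitals mark matches on either strand to the E2F core (TTGGCGC and its variants, which are TTCCCGC as well as TTCGCGC and also TTGCCGC), the CCAAT box (CCAAT), the E-box (CACGTG), the AP-1 site (TGANTCA), the cyclic AMP element (TGACGTC) or the GC box (GGGCGG), and no matches overlap in these stretches. The Ctps stretch lies at chr4:120570277-120570396 on the minus strand, Rrm1 at chr7:102441575-102441694 and Rrm2 at chr12:24708134-24708253, both on the plus strand.
Ctps: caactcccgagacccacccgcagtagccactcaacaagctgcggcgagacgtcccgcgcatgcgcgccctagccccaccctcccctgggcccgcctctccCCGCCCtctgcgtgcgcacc
Rrm1: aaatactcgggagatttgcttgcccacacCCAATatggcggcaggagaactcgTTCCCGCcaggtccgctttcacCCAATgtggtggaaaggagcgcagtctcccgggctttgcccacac
Rrm2: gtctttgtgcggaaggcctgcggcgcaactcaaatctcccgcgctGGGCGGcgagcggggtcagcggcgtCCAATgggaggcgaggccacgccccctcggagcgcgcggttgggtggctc

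The Rrm1 stretch held an E2F core 67 bases before the start between CCAAT boxes at 91 and 45 bases, and the Rrm2 stretch held a CCAAT box at 50 bases. In the Ctps stretch the only match was a GC box at 20 bases. Over the full 250 bases before a start, the 8 genes had 9 annotated windows, 2 of them for Ctps. An E2F core was in 3 of these windows (Rrm1, Rrm2 and the downstream window of Ctps), against 7.89% of all 32851 windows. A CCAAT box was in 2 of them (Rrm1 and Rrm2), against 33.8% of all windows, and a GC box in 7, against 32.7%. An E-box, the site bound by MYC and related factors, was in the Tyms window alone, against 6.02% of all windows. Neither the AP-1 site nor the cyclic AMP element was in any of the 9, against 6.75% and 2.78% of all windows. A match is a description of letters in these windows and no evidence of binding.

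Signals were compared as log2(intensity + 16) after quantile normalization, and differences are the mean of the arrays labelled dn-cJun minus the mean of the controls. Each gene was represented by its brightest probe set. Ctps was lower in every array labelled dn-cJun than in any control, Umps and Rrm1 were lower by smaller amounts that depended on the probe set, and the other members lay within the spread of the mice. Of the 8 genes, 7 were lower and 1 higher, with a median log2 difference of -0.14, against 49.7% of all 12736 genes tested below 0. The members past the threshold, a limma adjusted p under 0.05 over all genes, were 1 of 8, Ctps, against 0.777% of all genes (0.432% lower and 0.345% higher). For 2 of 8, Ctps and Umps, every array labelled dn-cJun lay below every control, against 2.13% of all genes (4.22% with those apart in either direction). The count of 1 became 0 without dn-cJun 16, 17, 19 or 20 and in eBayes without the intensity trend. Since the set was chosen on this contrast, nothing is read from these counts.

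**Figure D1:**
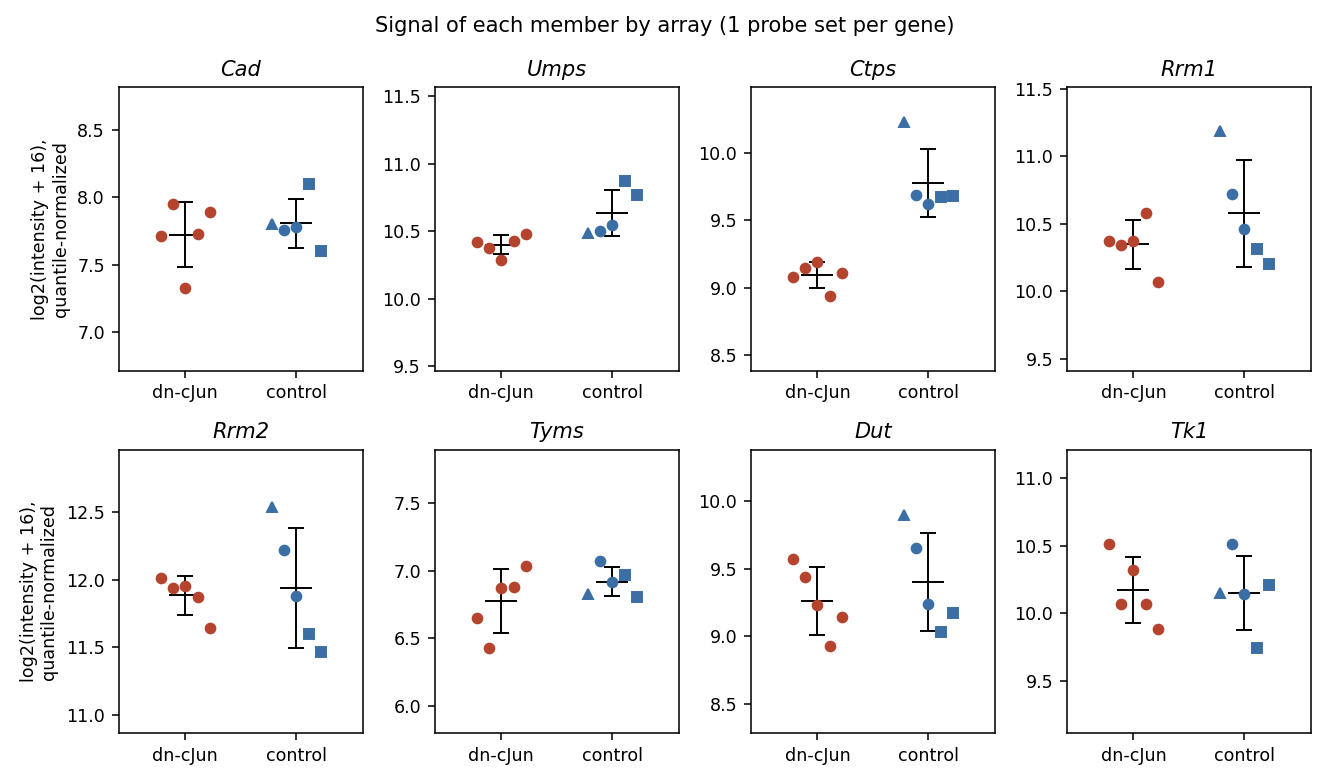
Signal of the 8 members in each array, as quantile-normalized log2(intensity + 16), with 1 point per mouse, a bar at the group mean and whiskers of 1 SD (n = 5 each). The triangle is control 11 and the squares are controls 14 and 15. Every panel spans the same height, and the groups are fully apart only for Ctps and, narrowly, Umps.

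Ctps, the enzyme of the final step to CTP, had 1 probe set (1416563_at). Its log2 signal was 9.08, 9.15, 9.19, 8.94 and 9.11 in dn-cJun 16 to 20, against 10.23, 9.69, 9.62, 9.67 and 9.68 in controls 11 to 15. The arrays labelled dn-cJun lay within 0.25 of each other and all below the lowest control. Control 11 stood above the other 4 controls. The means were 9.09 ± 0.10 in the arrays labelled dn-cJun and 9.78 ± 0.25 in the controls (SD, n = 5 each), a log2 difference of -0.69 with a standard error of 0.12, or a signal 37.9% lower. In the deposited intensities the range was 427.8 to 522.2 in the arrays labelled dn-cJun and 769.4 to 1462.2 in the controls. The log2 difference was -0.58 without control 11 and -0.76 without controls 14 and 15.

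Ctps2, the X-linked paralog of CTP synthase, is not a member and gave no such difference. Its log2 signal was 9.71 ± 0.39 in the arrays labelled dn-cJun and 9.72 ± 0.23 in the controls (SD, n = 5 each), and the log2 difference was -0.01 (SE 0.17, limma adjusted p = 0.981). Its ranges were 9.09 to 10.02 in the arrays labelled dn-cJun and 9.36 to 9.94 in the controls, so the groups overlapped throughout.

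Umps, which completes UMP, had 4 probe sets that differed in their values. The brightest (1455832_a_at) read 10.42, 10.38, 10.29, 10.43 and 10.48 in dn-cJun 16 to 20, against 10.49, 10.50, 10.55, 10.87 and 10.77 in controls 11 to 15. The groups did not overlap, but the highest array labelled dn-cJun and the lowest control were 10.48 and 10.49, and the highest controls were 14 and 15. The log2 difference was -0.23 (SE 0.09), and -0.11 without controls 14 and 15. The next probe set (1434859_at) gave -0.01 (SE 0.09), another (1451445_at) -0.12 (SE 0.23), and the dimmest (1431652_at), below the filter on low signal, 0.30 (SE 0.44). The lower Umps signal thus rested on 1 of 4 probe sets.

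Cad, the enzyme of the early pyrimidine steps, had log2 means of 7.72 ± 0.24 in the arrays labelled dn-cJun and 7.81 ± 0.18 in the controls (SD, n = 5 each) on its brightest probe set (1452829_at). The log2 difference was -0.09 (SE 0.15). Its other probe sets gave -0.34 (SE 0.25) and, below the filter, 0.58 (SE 0.33), so the direction for Cad changed with the probe set.

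Rrm1, the large subunit of ribonucleotide reductase, was lower on each of its 3 probe sets. The brightest (1448127_at) read 10.37, 10.34, 10.37, 10.58 and 10.07 in dn-cJun 16 to 20, against 11.19, 10.72, 10.46, 10.31 and 10.20 in controls 11 to 15. These groups overlapped, with controls 13, 14 and 15 inside the range of the arrays labelled dn-cJun and control 11 highest of all. The log2 difference was -0.23 (SE 0.16). It was -0.08 without control 11 and -0.45 without controls 14 and 15.

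A second Rrm1 probe set (1415878_at), designed from the same accession in the annotation, read 9.98, 9.84, 9.74, 9.98 and 9.80 in dn-cJun 16 to 20, against 11.02, 10.49, 10.19, 10.16 and 10.03 in controls 11 to 15. Here the groups did not overlap, with a log2 difference of -0.51 (SE 0.15), and -0.35 without control 11. The third (1440073_at), below the filter, gave -0.57 (SE 0.36). The 2 bright probe sets of Rrm1 ordered the controls alike, from control 11 down to control 15, and differed in where the arrays labelled dn-cJun fell.

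Rrm2, the small subunit that is made in S phase, did not show a difference beyond the spread of the controls. Its brightest probe set (1434437_x_at) read 12.01, 11.94, 11.95, 11.87 and 11.64 in dn-cJun 16 to 20, against 12.54, 12.22, 11.88, 11.60 and 11.46 in controls 11 to 15. The arrays labelled dn-cJun lay in the middle of the control range, below controls 11 and 12 and above controls 14 and 15. The log2 difference was -0.06 (SE 0.17), 0.09 without control 11 and -0.33 without controls 14 and 15. The other probe sets gave -0.20 (SE 0.16) and -0.04 (SE 0.12).

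Tyms, thymidylate synthase, was dim on this array. Its 4 single-gene probe sets gave log2 differences of -0.15 (SE 0.19), 0.33 (SE 0.40), -0.04 (SE 0.40) and -0.17 (SE 0.24), and only the brightest of these (1438690_at) passed the filter. A further probe set is annotated to Tyms and its pseudogene together and was left out.

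Dut, which removes dUTP, had 2 probe sets of opposite sign, at -0.13 (SE 0.17) for 1419270_a_at and 0.54 (SE 0.40) for 1419269_at. On the first of these the range was 8.93 to 9.57 in the arrays labelled dn-cJun and 9.03 to 9.90 in the controls. Control 11 was the highest array there, and the log2 difference was -0.01 without it. On the other the controls alone spanned 5.27 to 7.72.

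Tk1, the S-phase thymidine kinase of salvage, had log2 means of 10.17 ± 0.25 in the arrays labelled dn-cJun and 10.15 ± 0.27 in the controls (SD, n = 5 each). Its log2 difference was 0.02 (SE 0.14), and no array stood apart in either group.

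**Figure D2:**
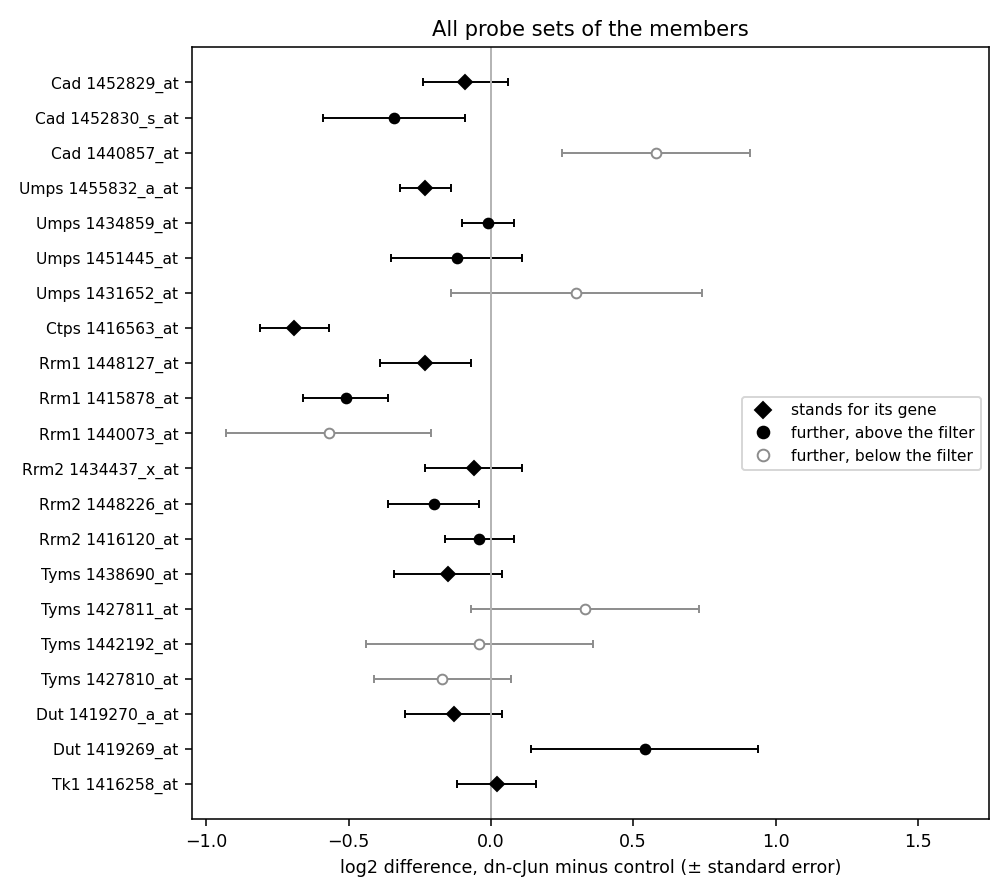
Log2 difference, dn-cJun minus control, with 1 standard error for all 21 probe sets of the 8 members. Filled symbols are the 15 above the filter and open ones the 6 below it, and diamonds stand for the gene. Ctps lies at -0.69, the Rrm1 probe sets at -0.57 to -0.23, and most others within 1 or 2 standard errors of 0.

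Over all 21 probe sets, 16 were lower and 5 higher. The filter, the 40th percentile of the mean signal, left out 6 of them, from Rrm1, Tyms, Umps and Cad. Of the 15 above it, 13 were lower, against 50.6% of all 22847 single-gene probe sets above it. The groups did not overlap, with dn-cJun lower, for 3, namely those of Ctps, Umps and Rrm1 given above, against 1.93%. The 15 were chosen on this contrast, and nothing is read from these counts.

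The other genes of nucleotide metabolism showed no common direction. Of 61 genes tested from 6 lists, 32 were lower and 29 higher, and none passed the limma threshold in either direction, against 0.777% of all genes. At an unadjusted p under 0.05, 6 were lower and 6 higher, together 12 of 61, against 7.47% of all genes lower and 7.42% higher, 14.9% together. The smallest adjusted p of the lists was 0.0776 (limma), that of Nme1.

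In the remaining pyrimidine synthesis genes, 3 were lower and 3 higher with a median log2 difference of 0.04. Nme1, a nucleoside diphosphate kinase, had 12.38 ± 0.09 in the arrays labelled dn-cJun and 12.08 ± 0.11 in the controls (SD, n = 5 each), a log2 difference of 0.29 with groups that did not overlap. Dhodh, the mitochondrial enzyme between the steps of Cad and Umps, was at 0.15 (SE 0.15), and Cmpk1, the UMP and CMP kinase, at -0.09 (SE 0.07).

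In purine synthesis, 6 of 12 were lower and 6 higher with a median of 0.01. Ppat, which commits the purine pathway, was at 0.31 (SE 0.10, limma adjusted p = 0.158), while Atic, the enzyme that closes the purine ring to IMP, was at -0.21 (SE 0.09). Impdh1, the paralog of the unmeasured Impdh2, was at 0.28 (SE 0.21).

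Among the genes of deoxynucleotide supply and pool control, 4 of 10 were lower and 6 higher with a median of 0.04. Nudt1, which clears oxidized purine nucleotides, was at -0.32 (SE 0.09, limma adjusted p = 0.144), and Itpa, which clears inosine triphosphates, at 0.26 (SE 0.09). Dtymk, which phosphorylates dTMP, was at -0.35 (SE 0.14) and Dck, which phosphorylates deoxycytidine, at -0.32 (SE 0.17). Rrm2b, the p53-inducible small subunit of ribonucleotide reductase, was at 0.07 (SE 0.18).

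In folate one-carbon metabolism, which supplies the carbon for dTMP and purines, 4 of 8 were lower and 4 higher with a median of 0.05. Shmt2, the mitochondrial serine hydroxymethyltransferase, was at 0.25 (SE 0.07, limma adjusted p = 0.105) and Mthfd1l at 0.29 (SE 0.10), each with groups that did not overlap. Mthfd2 was at -0.40 (SE 0.16).

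In nucleoside salvage and transport, 8 of 12 were lower and 4 higher with a median of -0.01. The uridine phosphorylases lay on opposite sides, Upp1 at -0.48 (SE 0.16, limma adjusted p = 0.175) and Upp2, the form abundant in liver, at 0.50 (SE 0.18, limma adjusted p = 0.213). Pnp, purine nucleoside phosphorylase, was at -0.31 (SE 0.10) and Hprt, which salvages hypoxanthine and guanine, at -0.01 (SE 0.10). In nucleotide catabolism, 7 of 13 were lower and 6 higher with a median of -0.02. Gda, guanine deaminase, had the smallest p, at 0.28 (SE 0.13, limma adjusted p = 0.351). Uox, urate oxidase, was at 0.06 (SE 0.05) and Dpyd, the start of pyrimidine breakdown, at -0.03 (SE 0.07).

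**Figure D3:**
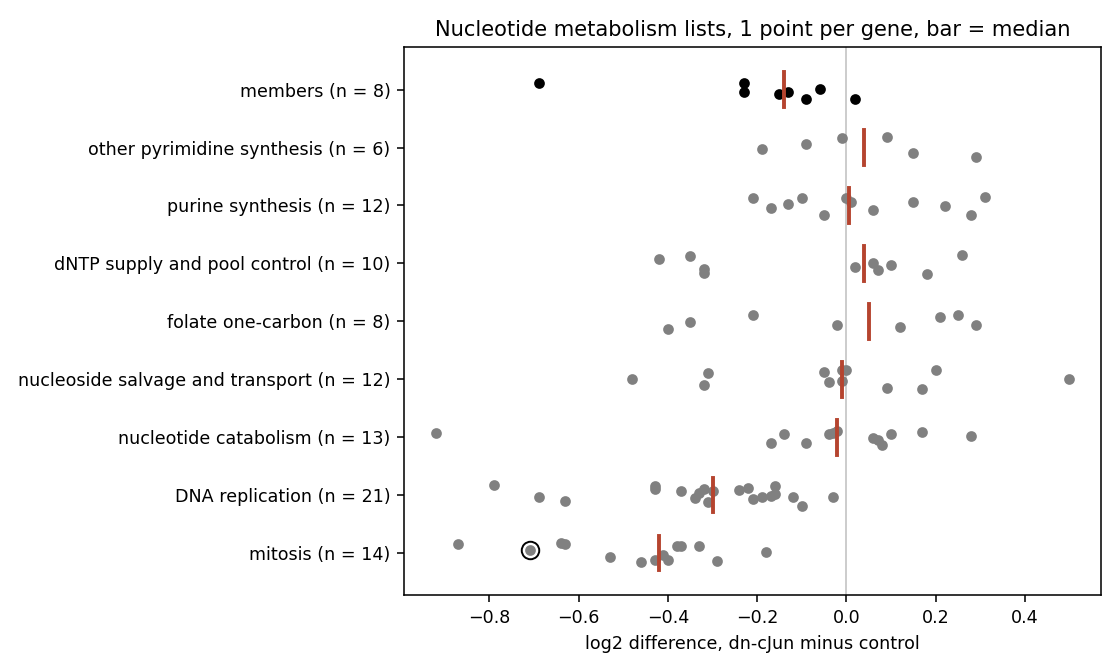
Log2 difference, dn-cJun minus control, of each gene tested, by list, with a bar at each list's median. The circled point is Ccnb2, the only list gene shown past the limma threshold. The 6 nucleotide metabolism lists have medians from -0.02 to 0.05, while all genes of DNA replication and mitosis lie below 0.

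The replication and division genes lay on the lower side together. Of the genes of DNA replication, 21 of 21 were lower with a median log2 difference of -0.30. None passed the limma threshold, against 0.432% of all genes lower, and 11 of 21 had an unadjusted p under 0.05, against 7.47%. Of the mitosis genes 14 of 14 were lower with a median of -0.42. Of these, 1, Ccnb2, passed in limma and 11 of 14 had an unadjusted p under 0.05. The mean level of the replication genes was 9.18 to 9.37 in the arrays labelled dn-cJun and 9.49 to 9.80 in the controls, and that of the mitosis genes 9.10 to 9.58 in the arrays labelled dn-cJun and 9.51 to 10.36 in the controls. Control 11 was highest in both, with the next control at 9.65 for replication and 9.93 for mitosis. The mitosis count became 0 without control 11, 13 or 15, without dn-cJun 17, 19 or 20 and in eBayes without trend, and 3 with a term for controls 14 and 15 or as deposited. The replication count became 1 without control 12 or with equal array medians, 2 without controls 14 and 15, 3 with the term and 7 as deposited. The difference between these lists and the nucleotide enzymes was not tested. Both lists were chosen with earlier results of these data known, so their counts are a description. Uhrf1, an S-phase chromatin factor, was at -0.63 (SE 0.14, limma adjusted p = 0.0576) and Mcm5, of the replicative helicase, at -0.69 (SE 0.16, limma adjusted p = 0.0576).

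Cell type markers were read beside these values. Of the 8 macrophage and Kupffer cell markers, 6 were lower and 2 higher, and Lyz2 and Cd5l passed as lower at log2 differences of -0.70 (limma adjusted p = 0.0294) and -0.57 (limma adjusted p = 0.0323), against 0.432% of all genes lower. The log2 of the 8 markers' summed level was 14.12 to 14.36 in the arrays labelled dn-cJun and 14.35 to 14.92 in the controls. That sum is weighted to the brightest markers, among them Lyz2 and Cd5l. The mean log2 signal of the 8 was 9.93 to 10.17 in the arrays labelled dn-cJun and 9.90 to 10.48 in the controls. Cd68, Csf1r, Adgre1 and Clec4f were at -0.27, -0.21, -0.11 and -0.15, and Marco and Vsig4 at 0.24 and 0.05. None of the 6 tested lymphocyte and NK cell, 6 endothelial, 6 stellate cell or 5 neutrophil markers passed in limma, and none of these had an unadjusted p under 0.05. Of 4 bile duct markers 3 were lower and 1 higher (1 at an unadjusted p under 0.05), and the 1 tested erythroid marker, Alas2, was at 0.91. All 8 hepatocyte markers were higher and none passed, with 3 at an unadjusted p under 0.05, against 7.42% of all genes higher. The part of macrophage content in the lower Ctps signal was not tested.

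The members were chosen on the difference between the groups, which deviations from the group means leave out. Relations between such deviations were tested. Each array's value was taken as its deviation from its group mean, and the deviations of each member were compared with the mean deviation of the 21 DNA replication genes and of the 14 mitosis genes, 16 relations in all over 10 arrays. Rrm1 and Rrm2 followed the replication genes, and how many of all genes did so as closely was not computed. For Rrm2 Pearson's r was 0.94 (two-sided exact permutation within groups, p = 0.000833, adjusted p = 0.0133) and Spearman's rho 0.92 (exact permutation p = 0.000972, adjusted p = 0.0156). For Rrm1 r was 0.92 (exact permutation p = 0.00278, adjusted p = 0.0152) and rho 0.83 (exact permutation p = 0.00986, adjusted p = 0.0464).

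In both genes control 11 was highest and controls 14 and 15 and dn-cJun 20 were lowest. Rrm1 deviated by 0.61 in control 11 and 0.14 in control 12, and by -0.26 and -0.38 in controls 14 and 15. Rrm2 deviated by 0.60 in control 11 and 0.28 in control 12, and by -0.34 and -0.48 in controls 14 and 15. In the arrays labelled dn-cJun the deviations of Rrm2 were between -0.24 in dn-cJun 20 and 0.13 in dn-cJun 16, and those of Rrm1 between -0.27 in dn-cJun 20 and 0.24 in dn-cJun 19, where Rrm2 was at -0.01. Without control 11 and control 14, the arrays farthest from the median of the replication genes, r was 0.87 for Rrm2 and 0.82 for Rrm1. Here and below, an r without controls 11 and 14 kept deviations from the full group means. It is therefore not a within-group r of the remaining arrays. Without control 11 alone, with group means taken anew, r was 0.88 for Rrm2 and 0.83 for Rrm1, and the adjusted exact permutation p was 0.0593 for each. Without controls 14 and 15, the arrays with high Xist, r was 0.88 for Rrm2 (exact permutation, adjusted p = 0.0593) and 0.85 for Rrm1 (exact permutation, adjusted p = 0.107). The values share arrays and scaling, so these relations describe the arrays as measured. Whether they come from the mice or from the handling of the arrays cannot be told apart.

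Against the mitosis genes r was 0.88 for Rrm2 (exact permutation, adjusted p = 0.0152) and 0.86 for Dut (exact permutation, adjusted p = 0.0214), and 0.81 for Rrm1 (exact permutation, adjusted p = 0.0526). Without controls 11 and 14 these were 0.71, 0.71 and 0.51. For Umps r was -0.76 (exact permutation, adjusted p = 0.0542), rho -0.83 (exact permutation, adjusted p = 0.0464), and r without controls 11 and 14 was -0.62. Dut had r = 0.75 with the replication genes (exact permutation, adjusted p = 0.0598), and 0.47 without controls 11 and 14.

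The relation of Ctps to the replication genes did not pass after quantile normalization. Its r with them was 0.62 and rho 0.48 (exact permutation, adjusted p = 0.169 and 0.235), and r was 0.01 without controls 11 and 14 and -0.12 without control 11. The relation rested on control 11, where it deviated by 0.45 while the other 9 arrays lay between -0.16 and 0.10. With the values as deposited r was 0.87 (exact permutation, adjusted p = 0.0488). Its r with the mitosis genes was 0.84 (exact permutation, adjusted p = 0.0542) and 0.58 without controls 11 and 14.

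Umps ran opposite to the replication genes, with r = -0.82 (exact permutation, adjusted p = 0.0522) and rho = -0.81 (exact permutation, adjusted p = 0.0464). For Umps r was -0.79 without control 11 (exact permutation, adjusted p = 0.102). Without controls 14 and 15, where Umps deviated upward most, r was -0.53 (exact permutation, adjusted p = 0.326). The sign for Umps turned with the values as deposited, where r was 0.10. For Tk1, Cad and Tyms r with the replication genes was 0.56, -0.32 and -0.17 (exact permutation, adjusted p = 0.169, 0.374 and 0.581). Among the members themselves r was 0.93 between Rrm1 and Rrm2, the highest of the pairs, and 0.84 between Rrm2 and Dut.

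**Figure D4:**
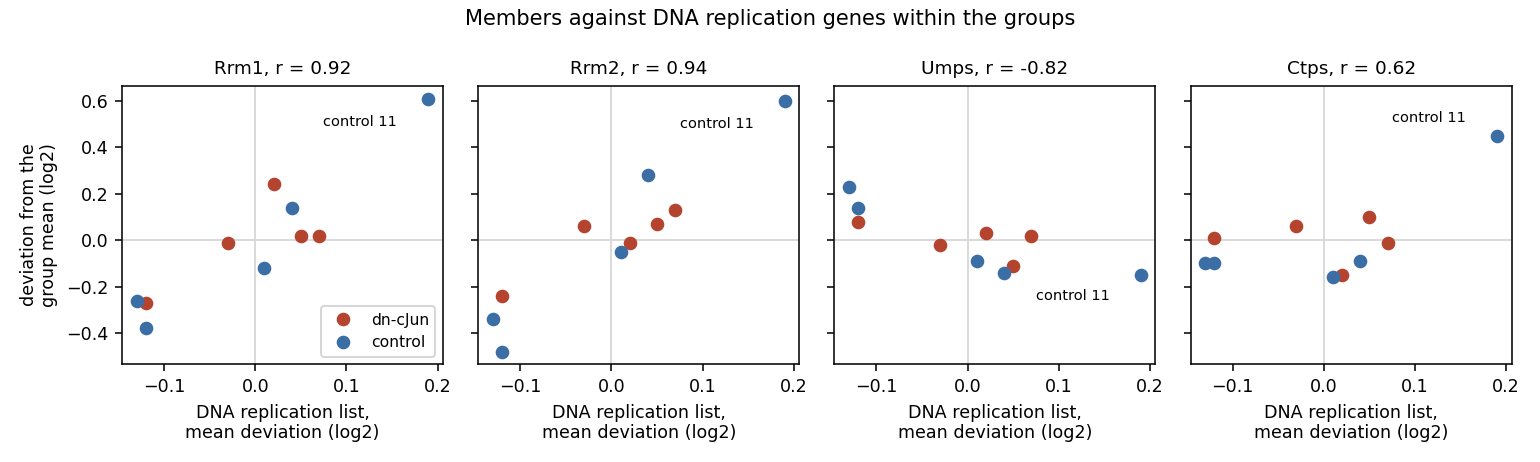
Deviation of each array from its group mean (log2) for Rrm1, Rrm2, Umps and Ctps, against the mean deviation of the 21 DNA replication genes, with 5 arrays labelled dn-cJun and 5 controls. The points rise together for Rrm1 (r = 0.92) and Rrm2 (r = 0.94), fall for Umps (r = -0.82), and for Ctps only control 11 stands away from a flat cloud.

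The genes most like Ctps were taken as the 8 with the strongest Pearson r of within-group deviations over the 10 arrays, as a description. With positive r these were Asf1b, a histone chaperone of replication, at 0.96 and Pom121, a nuclear pore protein, at 0.95. With negative r they were Pim3, Brf1, Slc1a5, Msln, Igfbp4 and Smcr8, at -0.97 to -0.95. Without control 11 the same 8 had r of 0.84 for Asf1b, 0.82 for Pom121 and -0.85 to -0.77 for the others. The remaining arrays had also served to choose the 8 genes, so these values are no separate check. Asf1b had log2 means of 8.18 in the arrays labelled dn-cJun and 8.64 in the controls, while Pom121 had 10.99 in the arrays labelled dn-cJun and 10.49 in the controls.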

How the data were processed

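The authors deposited 1 table of probe set intensity on a linear scale, with a column per array. Per the labels, biotin-labelled liver RNA of 1 mouse was hybridised to each Affymetrix array. The software and scaling are not given in the sources used here.

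Values were taken as log2(intensity + 16). Array medians on that scale spanned 0.50, and the arrays were quantile-normalized. Of 45101 probe sets, 64 were controls, 34945 carried a single gene symbol in GEO's platform annotation, 932 carried several, and 9160 carried none and are unnamed here. The probe set of highest mean signal stood for its gene, and genes under the 40th percentile were left out, which left 12736. Groups were compared as dn-cJun minus control with limma 3.58.1 in R 4.3.3 (lmFit, eBayes with intensity trend, two-sided, Benjamini-Hochberg, threshold 0.05). Standard errors of further probe sets came from a fit over all probe sets. P-values measure the spread between mice, and the number of arrays limits precision. Relations within groups used exact permutation over all 14400 orderings, with adjustment over 16 relations. The p-values were added to correlations first planned as a description. Promoter windows came from RefSeq, GRCm38.p6.

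Members, lists and tests were chosen with earlier results of these data known. Named were all members, of each list the genes past the threshold, the gene with the smallest p and up to 4 others by role, and the genes most like Ctps. The fit and the permutation test were tested on simulated data. There the fit recovered 38% of log2 changes of 0.5, 54.4% of -0.7, 75.6% of 1 and 97.2% of 2. A gene not past the threshold may therefore still differ. Alternatives covered scaling, pseudocount, filter, choice of probe set, variance model, array weights, each array left out, and controls 14 and 15 left out or given a term.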

Additional observations from a re-analysis of the deposited data

Results flagged for a closer look

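A sample was far from the others of its group in 6 of 112 groups of 5 arrays examined (the gap to the nearest array over 0.71 of the group's range), where chance gives about 1 in 20. Control 11 was among them 3 times. It was highest for Ctps at 10.23, against 9.69 in the next control, and highest for Dck at 10.69, against 10.09. It was lowest for Upp2 at 12.39, against 13.11. Array dn-cJun 20 was lowest for Rrm2 on probe set 1448226_at at 10.64, against 10.95 in the next array, and highest for Nme1 at 12.53, against 12.38. Control 12 was lowest for Cd5l at 13.05, against 13.45.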

How the results depend on the processing

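The log2 difference of Ctps was negative under each of the 23 alternatives, from -0.90 to -0.58. Of 483 probe set values under the alternatives, 479 moved by less than 1 SD between replicates. The 4 that moved more were of Ctps, Umps and Cad without quantile normalization (as deposited), which moved the median of all genes by -0.19. The filter, the choice of probe set and the variance model cannot change these values. Leaving out 1 array can hardly move a group mean by 1 SD. The count of 479 is therefore no measure of robustness. The members past the threshold were 2 with the values as deposited (Ctps and Umps), 0 in eBayes without trend, and 0 to 1 with 1 array left out. These are counts on the contrast that chose the members, from which nothing is read. The genes past it in all were 55 lower and 44 higher. These became 468 and 22 as deposited, 28 and 16 with all probe sets of a gene averaged, and 5 and 4 in eBayes without trend. With array weights 85 were lower, with a term for controls 14 and 15 95 were lower, with equal array medians 20 were higher, and without controls 14 and 15 13 were higher. With 1 array left out the range was 10 to 102 lower and 3 to 97 higher. Of the further nucleotide genes, 3 passed as deposited (Nudt1, Pnp and Upp1), 1 with the term (Nudt1), and 0 to 1 with 1 array left out (Pnp, without control 12). Within groups, 2 members passed with the replication genes, 0 without control 11, 0 without controls 14 and 15, and 4 as deposited (Ctps, Rrm1, Rrm2 and Dut). The same count over all genes was not computed, so these counts are not read as particular to the members. Signs turned for Ctps without control 11 (-0.12), and as deposited for Umps (0.10), Cad (0.11) and Tyms (0.29). The causes were not tested. Signal near background limits Tyms, Cad and the 6 probe sets below the filter. No paired analysis was possible because the groups share no replicate numbers.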

Other observations

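E2F and MYC are known to act on nucleotide synthesis genes. Of 13 genes of the E2F and RB families, 3 were lower and 10 higher, with a median log2 difference of 0.06, and none passed in limma, against 0.777% of all genes, with 1 at an unadjusted p under 0.05, against 14.9%. Rbl2, an RB relative of resting cells, was at 0.29 (SE 0.09, limma adjusted p = 0.155), with log2 means of 9.74 ± 0.11 in the arrays labelled dn-cJun and 9.45 ± 0.12 in the controls (SD, n = 5 each) and ranges that did not overlap. E2f1, the activator of S-phase genes, was at 0.11 (SE 0.28). Of 15 genes of MYC and ribosome biogenesis, 10 were lower and 5 higher with a median of -0.06, and none passed in limma, with 3 at an unadjusted p under 0.05. Myc was at -0.19 (SE 0.24), and Srm, spermidine synthase, had the smallest p at 0.30 (SE 0.11, limma adjusted p = 0.215).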
